A study of Mus musculus with 8 samples.

Results

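The cluster of miR-132 and miR-212 holds 2 neighbouring miRNA hairpins, and both arms of each were measured in the mouse hippocampus, giving 4 products among the 422 miRNAs counted. The products, mmu-miR-132-3p, mmu-miR-132-5p, mmu-miR-212-3p and mmu-miR-212-5p, were chosen by name and not by any measured value, though with earlier results of these data known. They are written below without the species prefix. Each library held the small RNA of the hippocampus of 1 adult male mouse of 12 weeks of age, and there were 4 mice per strain. BTBR (BTBR T+ Itpr3tf/J), an inbred line used to model idiopathic autism, was compared with the control strain B6 (C57BL/6J). No mouse was treated, and the strains differ at many loci, so that a difference between them cannot be assigned to 1 allele. Whole hippocampal tissue was used, without sorting of cells. Reads counted on miRNAs summed to between 2247482 and 7904990 per library, and BTBR replicate 2 was the lowest.

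Transcription of the locus is driven by the transcription factor CREB, and neuronal activity and neurotrophins such as BDNF raise it. In hippocampal neurons miR-132 is known for promoting dendrite growth and shaping spines. After Drosha and Dicer cut a hairpin, 1 arm of the duplex is usually kept in an Argonaute protein as the guide, while the other arm, the passenger, is mostly degraded. The ratio of the arms compares the products of a hairpin within a library and needs no scaling between libraries. Which arm is kept, how fast each is degraded and how well each is captured were not told apart.

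Both hairpins lie on the plus strand of chromosome 11 of GRCm38, with 203 bases between them. The miR-212 hairpin spans chr11:75173388-75173478 and the miR-132 hairpin chr11:75173682-75173747. GENCODE places both in intron 1 of the processed transcript 1700016P03Rik, which has 3 exons, and no other annotated transcript covers them. The RefSeq hairpin sequences (GRCm38.p6) are shown because they place the arms that the ratios compare, with the mature arms in capitals:
Mir212: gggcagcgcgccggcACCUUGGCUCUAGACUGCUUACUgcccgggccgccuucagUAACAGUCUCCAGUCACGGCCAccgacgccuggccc
Mir132: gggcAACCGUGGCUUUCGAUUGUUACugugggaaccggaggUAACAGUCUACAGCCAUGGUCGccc

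The mature sequences show which products can be expected to pair with the same sites. All 4 products matched a RefSeq entry, and capitals mark the seed, bases 2 to 8:
miR-132-3p: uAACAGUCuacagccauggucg
miR-212-3p: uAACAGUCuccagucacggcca
miR-132-5p: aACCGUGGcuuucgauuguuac
miR-212-5p: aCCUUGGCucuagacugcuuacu
The 3p products share the seed AACAGUC, which no other mature mouse miRNA of the RefSeq table carries. They are identical at 17 of 22 bases. The differences, counted from 1 at the 5′ end of miR-132-3p with its base first, are A10C, C14U, U17C, U20C and G22A, all outside the seed. The 5p products have different seeds.

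The 4 products differed far more from each other than between the strains. Levels are given as CPM, read counts scaled to library size with TMM factors, and the mature products have nearly the same length, 22 or 23 bases. How well each sequence is captured in a library was not tested. miR-132-3p, the guide product of its hairpin, had a mean of 3511 ± 587 CPM (SD, n = 4) in B6 mice and ranked 32nd by mean level among the 422 miRNAs. miR-212-5p followed with 232 ± 4.57 CPM and miR-212-3p with 99.6 ± 18.1 CPM, and the passenger miR-132-5p had 10.9 ± 3.12 CPM. The ranges of neighbours in this order did not overlap in B6 or in BTBR mice. miR-132-3p made up 89.9% to 92.0% of the reads of the cluster in B6 mice and 81.9% to 92.3% in BTBR mice, where BTBR replicate 2 was the lowest.

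None of the 4 products passed the study's threshold of 0.1 between BTBR and B6 mice when p-values were adjusted over all 422 miRNAs (quasi-likelihood test of edgeR, adjustment by Benjamini-Hochberg), against 1.66% of all miRNAs in either direction and 1.18% higher in BTBR mice. None passed with DESeq2, edgeR's exact test or limma-voom either. All 4 had log2 fold changes above 0, as had 50.9% of all miRNAs, and their median was 0.59 on the log2 scale against 0.02 over all miRNAs. Without adjustment, the 2 miR-212 products had a p under 0.05, against 10.9% of all miRNAs in either direction and 7.35% higher in BTBR mice. The strains did not overlap in 1 product, miR-212-5p, against 6.64% of all miRNAs in either direction and 3.32% higher in BTBR mice. In whole tissue, more cells that make a miRNA and more of it per cell cannot be told apart.

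miR-212-5p, the more abundant arm of its hairpin, was measured at 227, 231, 238 and 234 CPM in B6 replicates 1 to 4 and at 286, 496, 404 and 288 CPM in BTBR replicates 1 to 4. Every BTBR mouse lay above every B6 mouse, with replicates 2 and 3 well above the other 2 BTBR mice. The log2 fold change was 0.66 (standard error 0.22, 95% interval 0.18 to 1.15), with an adjusted p of 0.254 (unadjusted 0.0113) by edgeR. Its p was the 18th smallest of the 422. Exact permutation of the strain labels, two-sided and over all 70 ways to assign them, gave p = 0.0286, the smallest value possible. How close the B6 mice lay to each other depended on the scaling between libraries. With TMM their coefficient of variation was 1.97%, narrower than the counting interval of single libraries (214 to 240 CPM in B6 replicate 1), and with library size only it was 15.0%, when B6 mice spanned 204 to 272 CPM and BTBR mice, still without overlap, 296 to 492 CPM. Leaving out BTBR replicate 2, the highest, gave a log2 fold change of 0.46.

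miR-212-3p, which carries the seed shared with miR-132-3p, had 97.1, 78.5, 123 and 99.99 CPM in B6 replicates 1 to 4 and 138, 202, 181 and 107 CPM in BTBR replicates 1 to 4. BTBR replicate 4 lay below B6 replicate 3, and the other BTBR mice lay above all B6 mice. The log2 fold change was 0.65 (standard error 0.25, 95% interval 0.10 to 1.20), with an adjusted p of 0.345 (unadjusted 0.0238) by edgeR. Its unadjusted p stayed under 0.05 in 11 of 16 alternatives and lay between 0.0584 and 0.0750 when B6 replicate 1, 2 or 4, or else BTBR replicate 2 or 3, was left out (edgeR). The exact permutation test gave p = 0.0571 with TMM. With library size only the strains did not overlap, as B6 mice spanned 87.2 to 107 CPM and BTBR mice 112 to 207 CPM. Under that scaling the strains did not overlap in 5.45% of all miRNAs, 4.27% being higher in BTBR mice, and the median log2 fold change of all miRNAs was 0.15.

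miR-132-3p had 3572, 3098, 4318 and 3056 CPM in B6 replicates 1 to 4 and 5437, 3169, 5821 and 4006 CPM in BTBR replicates 1 to 4. BTBR replicates 1 and 3 were the highest of the 8 mice, and BTBR replicate 2 lay within the range of the B6 mice. The strains differed by 0.39 ± 0.22 (log2 fold change and its standard error), with an adjusted p of 0.575 by edgeR, and the 95% interval of −0.10 to 0.88 includes no change as well as the size measured for miR-212-5p. The exact permutation test gave p = 0.2. Leaving out BTBR replicate 2 gave 0.51 on the log2 scale, with an adjusted p of 0.366 (unadjusted 0.0228) by edgeR.

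miR-132-5p, the passenger arm, was counted with 37, 65, 73 and 49 reads in B6 replicates 1 to 4 and with 152, 7, 61 and 106 reads in BTBR replicates 1 to 4. This corresponds to 7.10 to 14.7 CPM in B6 and to 31.2, 3.14, 15.3 and 12.8 CPM in BTBR mice, so that the highest and the lowest of the 8 mice were both BTBR. The 7 reads of BTBR replicate 2 have an exact 95% Poisson interval of 2.8 to 14.4 reads, and the interval of BTBR replicate 1 runs from 128.8 to 178.2 reads, so that counting error does not bridge them. The log2 fold change was 0.53 (standard error 0.52, 95% interval −0.61 to 1.67, adjusted p = 0.731 with edgeR). It was −0.04 without BTBR replicate 1 and 0.82 without BTBR replicate 2, so that no direction can be given. Within strains the SD of its log2 level was 0.97, larger than in 91.5% of all miRNAs, while the other 3 products lay between 0.28 and 0.35, beside a median of 0.44 over all miRNAs.

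**Figure D1:**
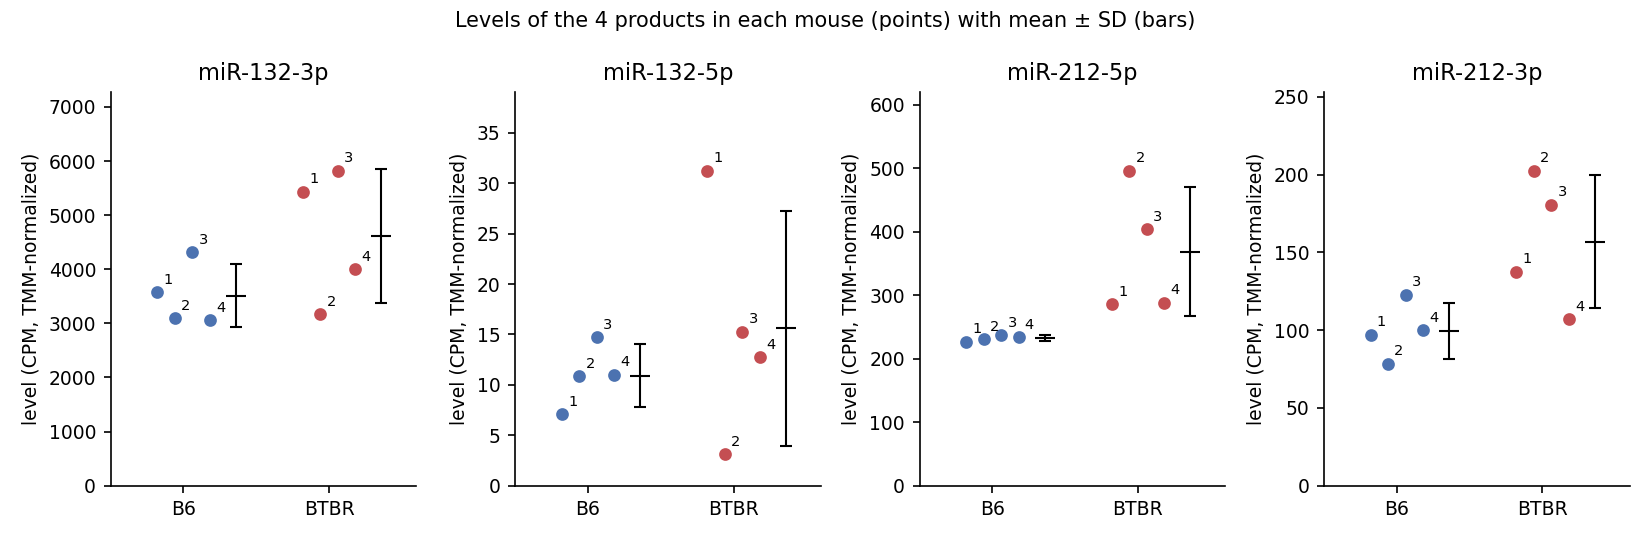
Level in CPM after TMM normalization (linear axes from 0) of miR-132-3p, miR-132-5p, miR-212-5p and miR-212-3p in each mouse, with replicate numbers beside the points and mean ± SD as black bars (n = 4 per strain). The B6 points of miR-212-5p lie between 227 and 238 CPM below all BTBR points, while BTBR replicate 2 is the lowest BTBR mouse for both miR-132 products and the highest for both miR-212 products.

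**Figure D2:**
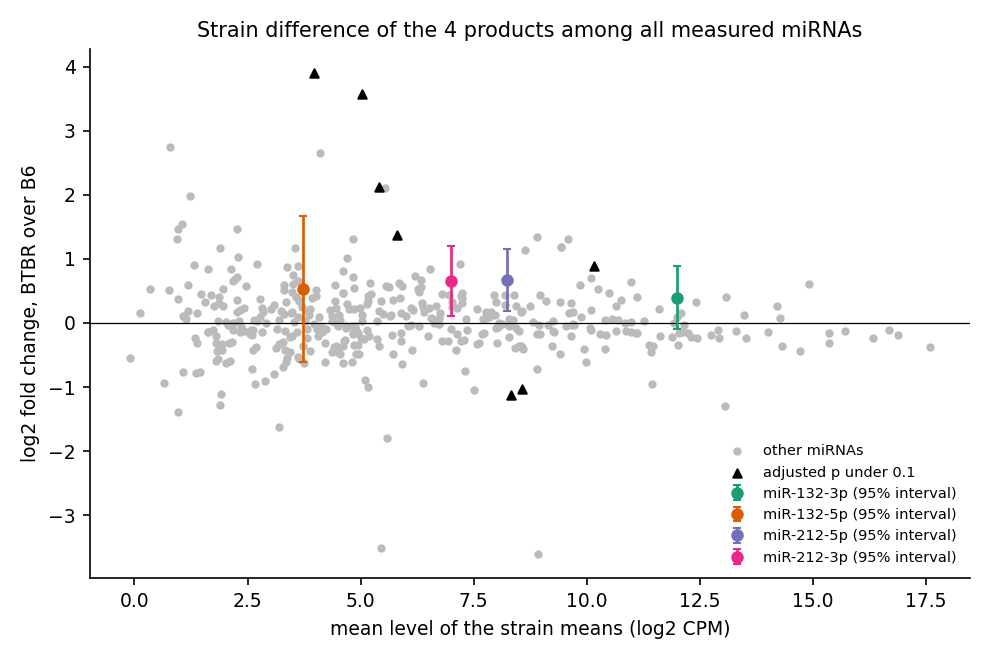
Log2 fold change of BTBR over B6 against the mean level (log2 CPM) for 422 miRNAs, with grey points for those not called, black triangles for the 7 miRNAs at an adjusted p under 0.1 and coloured points with 95% intervals for the 4 products. The intervals of miR-212-5p (0.18 to 1.15) and miR-212-3p (0.10 to 1.20) lie above 0, and those of the miR-132 products include 0.

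The output of each hairpin was also compared as a sum of its arms. The miR-212 hairpin gave 332 ± 21.5 CPM (SD, n = 4) in the B6 strain and 525 ± 142 CPM in the BTBR strain. The strains did not overlap (309 to 360 CPM against 395 to 699 CPM, exact permutation p = 0.0286, adjusted p = 0.114 over 4 nested sums). The share of all hairpins without overlap in such sums was not counted. For the miR-132 hairpin the means were 3522 ± 588 CPM and 4624 ± 1246 CPM, with overlapping ranges (exact permutation p = 0.2). Because miR-132-3p dominates, the 2 products with the shared seed AACAGUC together followed it, with 3610 ± 602 CPM in B6 and 4765 ± 1232 CPM for BTBR (exact permutation p = 0.2). Without BTBR replicate 2 all 4 sums passed the threshold of 0.1 (exact permutation, adjusted p = 0.0857 for each), with log2 differences of 0.48 for the miR-212 hairpin, 0.53 for the miR-132 hairpin, 0.53 for the shared seed and 0.53 for the whole cluster. miR-212-3p contributed 2.47% to 3.17% of the reads with this seed in B6 mice, 2.47% to 3.01% in 3 BTBR mice and 6.00% in BTBR replicate 2.

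The arm preference of the hairpins was opposite, with the 3p arm in excess in miR-132 and the 5p arm in miR-212. For miR-212 the ratio of 5p to 3p reads was 2.34, 2.94, 1.94 and 2.34 in B6 replicates 1 to 4 and 2.08, 2.45, 2.24 and 2.70 in BTBR replicates 1 to 4. These ranges overlapped almost fully, and the geometric means were 2.36 in B6 and 2.35 in BTBR mice, a difference of −0.005 on the log2 scale (exact permutation p = 1, adjusted p = 1 over 6 ratios). The SDs of the log2 ratio were 0.25 in B6 and 0.16 in BTBR mice.

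For miR-132 the ratio of 3p to 5p reads was 503, 285, 293 and 278 in B6 replicates 1 to 4 and 174, 1009, 381 and 314 in BTBR replicates 1 to 4. The BTBR mice held both extremes. The exact 95% interval, which covers counting error only, was 148 to 205 in BTBR replicate 1 and 489 to 2509 in BTBR replicate 2. The geometric means were 329 in B6 and 381 in BTBR mice (difference 0.21 on the log2 scale, exact permutation p = 0.743, adjusted p = 0.891 over 6 ratios). Without BTBR replicate 2 the difference was −0.26, so that its direction rests on the library with 7 reads of miR-132-5p.

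Across the 99 hairpins with 1 row for each arm, 2 hairpins (2.02%) had arm ratios that did not overlap between the strains, and neither miR-132 nor miR-212 was among them. The arm ratio of miR-212 was among the steadiest, with a within-strain SD of 0.21 on the log2 scale and a smaller one in 3.03% of hairpins. The SD of miR-132 was 0.80, and 66.7% of hairpins had a smaller one. The spread of an arm ratio moved with the reads of the rarer arm. For the 13 hairpins within 2-fold of the rarer miR-212 arm (mean 595 reads, miR-212 included) the median SD was 0.40, and for the 42 within 2-fold of miR-132-5p (mean 68.8 reads, miR-132 included) it was 0.66. The miR-132 hairpin was among the most one-sided, with a mean excess of 8.47 on the log2 scale that was smaller in 84.8% of hairpins.

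**Figure D3:**
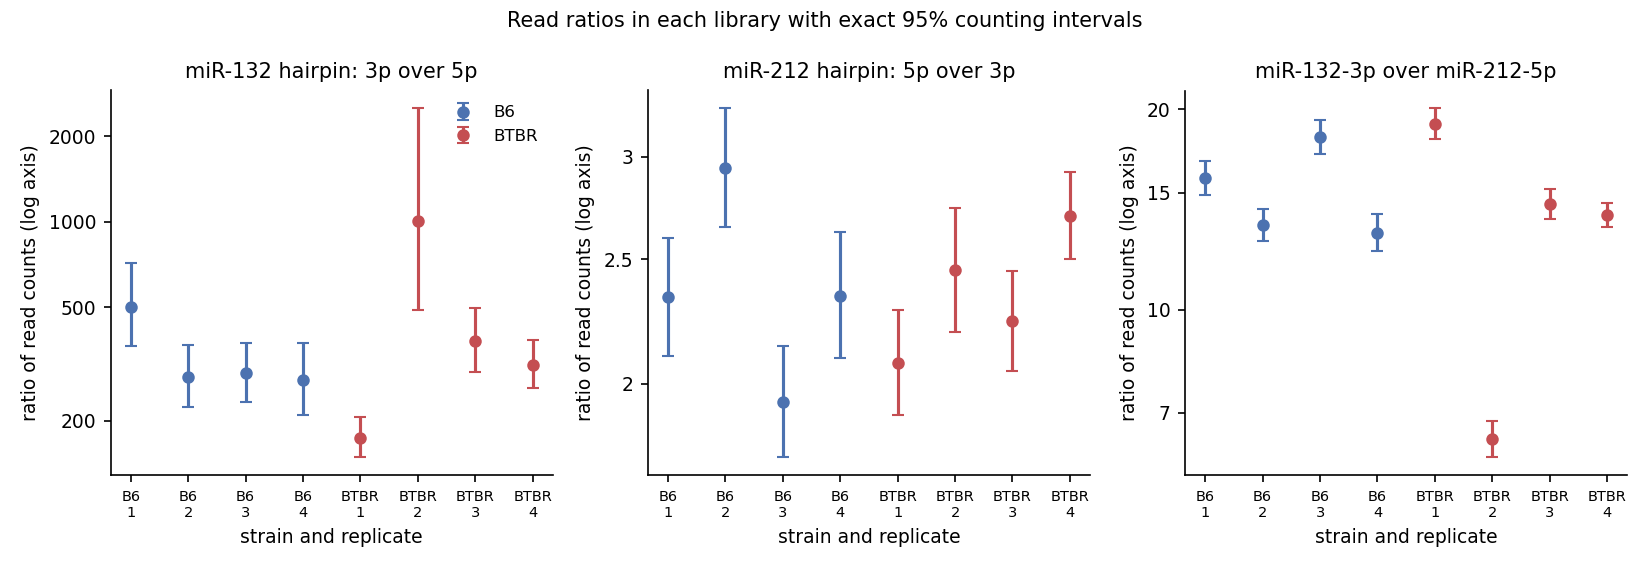
Ratio of read counts (log axes) in each library for the arms of miR-132 (3p over 5p), the arms of miR-212 (5p over 3p) and miR-132-3p over miR-212-5p, with exact 95% counting intervals. The miR-212 arms stay between 1.94 and 2.94 in all 8 libraries, while BTBR replicate 2 stands at 1009 in the first panel and at 6.39 in the last.

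**Figure D4:**
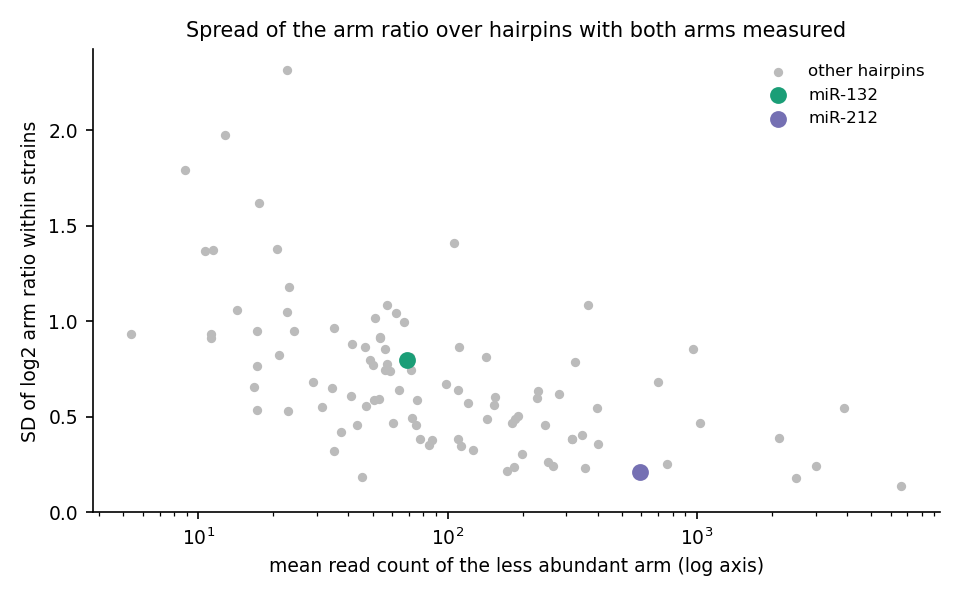
SD of the log2 arm ratio within strains against the mean read count of the less abundant arm (log axis) for 99 hairpins, with miR-132 and miR-212 coloured. miR-212, at 595 reads and an SD of 0.21, lies near the lower edge, and miR-132, at 68.8 reads and 0.80, within the other hairpins of like counts.

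Although the hairpins lie in 1 intron, their products did not keep a fixed ratio in every mouse. miR-132-3p exceeded miR-212-5p 15.7-fold, 13.4-fold, 18.2-fold and 13.1-fold in B6 replicates 1 to 4 and 19.0-fold, 6.39-fold, 14.4-fold and 13.9-fold in BTBR replicates 1 to 4. The 7 other libraries lay between 13.1 and 19.0, and BTBR replicate 2 lay below them with an exact 95% counting interval of 6.00 to 6.81. The ratio of miR-132-3p to miR-212-3p showed the same library apart, at 15.7 against 30.6 to 39.5 in the other 7. A strain difference was not detected in any of the 4 ratios between a miR-132 and a miR-212 product (exact permutation tests, p between 0.657 and 0.743, adjusted p = 0.891 over 6 ratios), and without BTBR replicate 2 each difference changed sign.

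BTBR replicate 2 also stood apart beyond this cluster. It had the fewest reads, and its median absolute deviation from the other mice of its strain was 0.62 on the log2 scale over all miRNAs, against 0.23 to 0.41 in the other 7 libraries. Relative to the mean of the other 3 BTBR mice, miR-132-3p differed by −0.66 and miR-132-5p by −2.37 on the log2 scale, while miR-212-3p differed by 0.55 and miR-212-5p by 0.62. Among all 422 miRNAs, miR-132-5p was the 11th lowest on this scale, and the other 3 products were outside the 98 most extreme in either direction. The 6 neuronal marker miRNAs summed to 58338 CPM in this library, the lowest of the BTBR mice and within the B6 range of 49268 to 77575 CPM. It lay below the B6 range for the 4 vessel and mural miRNAs (6831 against 8863 to 13365 CPM). It lay above the B6 range for the 4 microglial and immune miRNAs (712 against 444 to 508 CPM) and the 4 red blood cell miRNAs (1371 against 303 to 853 CPM). Other BTBR mice also lay outside the B6 range for the immune and the red blood cell sums. The lowest immune sum of a BTBR mouse was 422 CPM, and miR-486a-5p alone reached 1244 CPM in BTBR replicate 3. The 11 activity-regulated miRNAs summed to 37162 CPM in BTBR replicate 2, against 55535 to 67208 CPM in B6 mice. miR-181a-5p alone made up 30984 CPM of this sum. Other BTBR mice also lay outside this B6 range, with the highest at 72362 CPM. The part of sequencing depth and of other cells in these deviations was not tested.

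Of the 6 pairs of products, the miR-212 arms had the highest correlation over the 8 libraries, an order that did not hold without BTBR replicate 2. On log2(CPM + 0.5), the 2 miR-212 products had a Pearson's r of 0.91 (exact permutation p = 0.00201, adjusted p = 0.0121 over 6 pairs) and a Spearman's rho of 0.90 (exact permutation p = 0.00456, adjusted p = 0.0274). Within strains, with each strain centred on its own mean, r was 0.80, and without the 2 libraries farthest from the median, BTBR replicates 2 and 3, it was 0.60. Without BTBR replicate 2 alone it was 0.85, below the 0.93 of miR-132-3p with miR-212-3p. The 2 miR-132 products had r = 0.70 (exact permutation p = 0.0453, adjusted p = 0.136) and rho = 0.76 (exact permutation p = 0.0368, adjusted p = 0.1103), with r = 0.77 after centring and 0.49 without the 2 farthest libraries, BTBR replicates 1 and 3. The arms of a hairpin had a median r of 0.20 over the 99 hairpins, and r was smaller in 93.9% of them than in miR-212 and in 83.8% than in miR-132.

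Between the hairpins, BTBR replicate 2 decided the value. miR-132-3p and miR-212-3p, the products with the shared seed, had r = 0.45 (exact permutation p = 0.254, adjusted p = 0.509) and rho = 0.55 (exact permutation p = 0.171, adjusted p = 0.342) over 8 libraries, and r = 0.93 over the 7 without BTBR replicate 2. miR-132-3p and miR-212-5p, the dominant arms, had r = 0.24 and rho = 0.43 over 8 libraries (exact permutation p = 0.583 and 0.299, adjusted p = 0.681 and 0.449) and r = 0.81 without that library. Without the 2 libraries farthest from the median of miR-132-3p, BTBR replicates 1 and 3, r was 0.04 and −0.20. miR-132-5p had r = −0.18 with miR-212-3p and −0.38 with miR-212-5p (exact permutation p = 0.681 and 0.361, adjusted p = 0.681 and 0.542). The corresponding rho was 0.29 and 0.21 (exact permutation p = 0.501 and 0.619, adjusted p = 0.601 and 0.619), and r was 0.63 and 0.60 without the 2 farthest libraries, BTBR replicates 1 and 2. With each strain centred on its own mean, r was 0.11 and −0.37 for miR-132-3p with miR-212-3p and miR-212-5p. For miR-132-5p with the same products it was −0.37 and −0.75. These values pool strains that went opposite ways. In the 4 B6 mice alone the r of these pairs, in the same order, were 0.81, 0.41, 0.45 and 0.96. In the 4 BTBR mice, BTBR replicate 2 among them, they were −0.14, −0.44, −0.55 and −0.82. The median r over all 88831 pairs of miRNAs was −0.01.

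**Figure D5:**
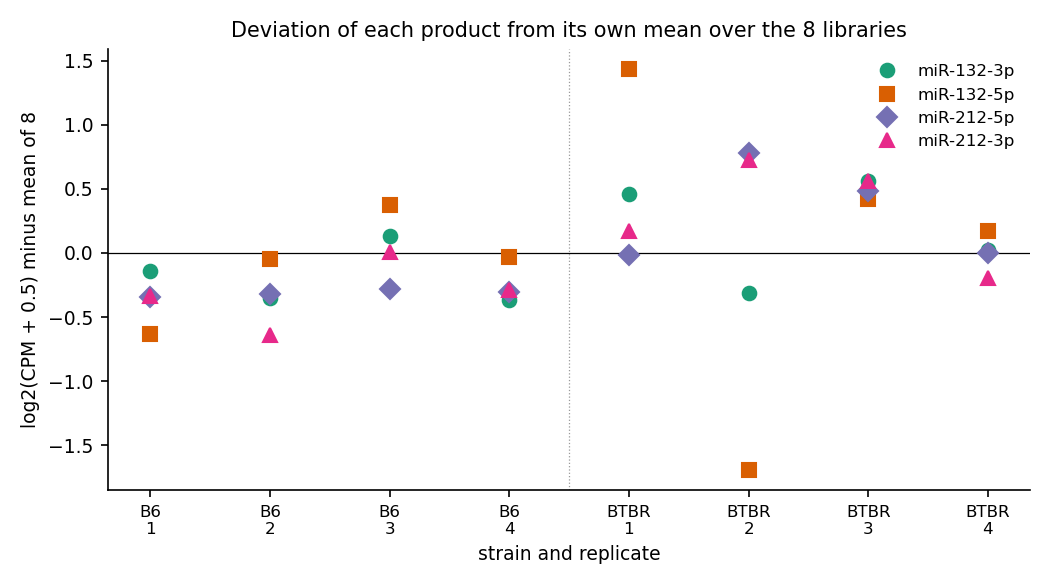
Deviation of log2(CPM + 0.5) from the mean of the 8 libraries for each product in each library, with B6 left and BTBR right of the dotted line and replicates in label order. In BTBR replicate 2 the miR-212 products lie above and the miR-132 products below 0, while in BTBR replicate 3 all 4 lie above 0.

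The miR-212 levels were lower in libraries with more reads, a relation that passed the threshold over 8 libraries but not without BTBR replicate 2 or without BTBR replicate 3. Over the 8 libraries, log2 levels of miR-212-5p and the log2 total had r = −0.81 (exact permutation p = 0.0148, adjusted p = 0.0432 over 4 products) and rho = −0.55 (exact permutation p = 0.171, adjusted p = 0.342). For miR-212-3p r was −0.77 (exact permutation p = 0.0216, adjusted p = 0.0432) and rho −0.64 (exact permutation p = 0.0962, adjusted p = 0.342). With the strains centred r was −0.90 and −0.78, and without BTBR replicates 2 and 4, the libraries with the most extreme totals, −0.96 and −0.74. In the libraries then left, BTBR replicates 1 and 3 (4690835 and 3479711 reads) had lower totals than every B6 mouse (5078301 or more). Depth and strain cannot be told apart among them. A lower r was found in 1.66% of all miRNAs for miR-212-5p and in 3.55% for miR-212-3p. Without BTBR replicate 2, r was −0.53 for miR-212-5p and −0.58 for miR-212-3p (exact permutation, adjusted p = 0.391 for both), and without BTBR replicate 3 it was −0.78 and −0.74 (exact permutation, adjusted p = 0.204 for both). miR-132-3p had r = 0.01 and rho = −0.12 (exact permutation p = 0.978 and 0.793, adjusted p = 0.978 and 0.977), and miR-132-5p r = 0.48 and rho = −0.02 (exact permutation p = 0.226 and 0.977, adjusted p = 0.302 and 0.977). Without the same 2 libraries r was −0.66 and −0.41. BTBR libraries include the 3 lowest totals, and the part of depth in the higher miR-212 levels of BTBR mice was not tested.

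Likeness over the 8 libraries, by Pearson's r of log2(CPM + 0.5), placed the miR-212 arms close to each other among all miRNAs. miR-212-5p was the 2nd most like of 421 miRNAs to miR-212-3p, and miR-212-3p the 4th most like to miR-212-5p. Among miRNAs with a mean of at least 100 reads, miR-212-3p was most like miR-212-5p, miR-1198-5p (r = 0.86) and miR-129-5p (r = 0.82), and miR-212-5p most like miR-1198-5p (r = 0.94), miR-140-5p (r = 0.93) and miR-212-3p. miR-132-3p was most like miR-128-3p (r = 0.89), miR-411-3p (r = 0.86) and miR-540-3p (r = 0.82). miR-132-5p was most like miR-431-3p (r = 0.96), miR-329-5p (r = 0.94) and miR-29b-3p (r = 0.93). In the order of likeness to miR-132-3p, miR-132-5p came 13th, miR-212-3p 58th and miR-212-5p 128th. These are descriptions over 8 libraries that share their normalization.

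Levels were also set against other neuronal miRNAs of the same library. The 6 neuronal markers (miR-124-3p, miR-128-3p, miR-9-5p, miR-9-3p, miR-137-3p and miR-153-3p) were all measured. Of these, 0 passed the adjusted threshold (1.66% of all miRNAs) and 0 had an unadjusted p under 0.05 by edgeR (10.9%). Their log2 fold changes ran from −0.16 to 0.43. Relative to their mean log2 level, miR-212-5p lay between −2.67 and −2.25 in B6 and between −2.20 and −1.45 in BTBR mice, without overlap (difference 0.50, exact permutation p = 0.0286, adjusted p = 0.114 over 4 products). The share of all miRNAs without overlap on this scale was not counted. Relative to miR-124-3p alone, the strains overlapped in miR-212-5p (difference 0.61, exact permutation p = 0.114, adjusted p = 0.267). miR-212-3p differed by 0.51 (exact permutation p = 0.114), miR-132-3p by 0.25 (exact permutation p = 0.343) and miR-132-5p by 0.05 (exact permutation p = 0.914).

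Among 11 other miRNAs described as regulated by neuronal activity, all measured, 0 passed the adjusted threshold in either direction, 0 had an unadjusted p under 0.05 in edgeR's quasi-likelihood test, and 6 had log2 fold changes above 0. Their median log2 fold change was 0.03, with a range from −0.62 to 0.54, beside 0.02 over all miRNAs. The 2 with the smallest p were miR-134-5p, which limits dendritic spine growth, and miR-379-5p, from the large miRNA cluster of the Dlk1-Dio3 locus. miR-134-5p measured 127 ± 15.2 CPM in B6 against 176 ± 42.9 CPM for BTBR (log2 fold change 0.47, standard error 0.23, adjusted p = 0.494 with edgeR). miR-379-5p had 1896 ± 455 and 2524 ± 382 CPM (log2 fold change 0.41, standard error 0.22, adjusted p = 0.521 with edgeR).

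Markers of other cells were measured beside the cluster. Over all miRNAs, 1.66% passed the adjusted threshold in either direction (1.18% higher in BTBR mice) and 10.9% had an unadjusted p under 0.05 (edgeR). Of 3 oligodendrocyte, 4 microglial and immune and 4 vessel and mural miRNAs, 0 passed the adjusted threshold or had an unadjusted p under 0.05 (edgeR), and their summed levels overlapped between the strains. The 4 red blood cell miRNAs summed to between 303 and 853 CPM in the B6 strain and between 531 and 1371 CPM in the BTBR strain, with the highest sum in BTBR replicate 2. Of these 1, miR-451a, passed, higher in BTBR mice, and 3 had an unadjusted p under 0.05 (edgeR). The 5 choroid plexus miRNAs summed to between 5120 and 39114 CPM in B6, against 5091 to 9363 CPM for BTBR, and 0 passed, with 3 at an unadjusted p under 0.05. None of these markers was at 0 in any library, but no count of 0 was seen among the other deposited miRNAs either. Being above 0 therefore cannot show whether these cells were in the tissue. The part of these cells in the levels of the cluster was not tested.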

How the data were processed

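Adapters were removed, and the reads were mapped to GRCm38 with sRNAbench, which runs Bowtie, and assigned to miRBase v21 where they lay fully within an annotation. The authors deposited whole-number counts of reads for 422 miRNAs in 8 libraries, without normalization, molecular identifiers or pooling. Read quality was checked by the authors with FastQC 0.11.2.

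The counts were normalized by TMM (factors 0.872 to 1.18) and the strains compared by edgeR 4.0.16's quasi-likelihood test in R 4.3.3, over all 422 miRNAs without a filter or covariate, with Benjamini-Hochberg adjustment at the study's 0.1. Each standard error was derived from the F statistic of the test. Ratios use log2 of counts and sums use log2 of the summed CPM, both without an offset. Permutation tests of single products and correlations use levels as log2(CPM + 0.5). Python 3.11.15 with scipy 1.17.1 was used for these steps. Permutation tests are two-sided and exact, over 70 assignments or 40320 pairings with all 8 libraries and over fewer where mice were left out. With strains centred the 40320 pairings were also used, and those p are approximate because centred values are not freely exchangeable. Sums, ratios and correlations were called at an adjusted p of 0.1 within their family. Intervals of counts, levels and ratios in single libraries cover counting error only. Those of log2 fold changes come from the standard error of the edgeR test, which includes variation between mice. The steps were tested on simulated data. Sequences come from RefSeq tables of GRCm38.p6 and coordinates of the host transcript from GENCODE.

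Members, lists and tests were chosen with earlier results of these data known. The named miRNAs are the 4 products, the 2 listed activity-regulated miRNAs of smallest p, and for each product the 3 most like miRNAs with a mean of at least 100 reads. Pairs of libraries of a strain differed with a chi-square per degree of freedom of at least 81.7, above sampling noise alone. Alternatives were DESeq2 1.42.0, edgeR's exact test, limma-voom (limma 3.58.1), RLE factors, library size only, a mean count of at least 10, robust dispersions, a replicate block, an offset of 0.5 reads, miR-124-3p as the only reference, and each mouse left out.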

Additional observations from a re-analysis of the deposited data

Results flagged for a closer look

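Of 28 sets of 4 values tested with Dixon's criterion (levels, ratios and sums of the products within a strain), 1 held a sample far from the others, where chance flags about 1 in 20 sets. The ratio of miR-132-3p to miR-132-5p reads was 503 in B6 replicate 1 and between 278 and 293 in the other B6 mice. The gap made up 0.931 of the range of the 4 values, above Dixon's 95% critical value for 4 samples. B6 replicate 1 had 37 reads of miR-132-5p, the fewest in B6 mice, and the exact 95% counting interval of its ratio was 365 to 715.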

How the results depend on the processing

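No product passed the adjusted threshold in any of the 64 refits of the 4 levels. miR-132-3p, miR-212-3p and miR-212-5p kept log2 fold changes above 0 throughout (0.26 to 0.57, 0.48 to 0.82 and 0.46 to 0.81), and the unadjusted p was under 0.05 in all 16 alternatives for miR-212-5p and in 11 of 16 for miR-212-3p. For miR-212-5p the adjusted p ran from 0.132 with DESeq2 to 0.676 without B6 replicate 1. With each mouse left out, miR-132-5p ran from −0.038, without BTBR replicate 1, to 0.82. The count of all miRNAs called was 7. It was 17 with DESeq2, 16 with edgeR's exact test, 4 with library size only, 3 with the replicate block, and 3 to 13 with each mouse left out, with 13 without B6 replicate 2, 4 without BTBR replicate 1 and 3 without BTBR replicate 3 or 4. The replicate numbers pair nothing in the labels, same-numbered mice correlated between −0.15 and 0.05, 1 of 4 correlated best with its own number, and the block changed no call of a product. With each mouse left out, the log2 strain difference of the arm ratio ran from −0.26 to 0.59 for miR-132 and from −0.10 to 0.10 for miR-212, that of miR-132-3p over miR-212-5p from −0.46 to 0.062, over miR-212-3p from −0.41 to 0.038, and that of miR-132-5p over miR-212-5p from −1.05 to 0.32 and over miR-212-3p from −0.997 to 0.29. The upper bounds of the latter 4 came without BTBR replicate 2. Relative to neuronal miRNAs miR-132-5p ran from −0.43 to 0.63. The summed cluster differed by 0.40, with 0.28 to 0.53 with each mouse left out, and it and the other 3 sums passed without BTBR replicate 2 (0.53 for the cluster, exact permutation, adjusted p = 0.0857), and in no other alternative. Of the 6 correlations 1 passed, 3 with strains centred, and 1 to 4 with each mouse left out, 4 being without BTBR replicate 2. The r of miR-132-3p with miR-212-5p was −0.37 when centred and ran from −0.076 to 0.81 with each mouse left out. That of miR-132-5p ran from −0.36 to 0.59 with miR-212-3p and from −0.54 to 0.45 with miR-212-5p, and their rho was 0.29 and 0.21. The number of products whose level passed the test against the library total was 2 over 8 libraries and 0 without BTBR replicate 2 or without BTBR replicate 3. Leaving out mice in that test was added after seeing the data. The cause of these changes was not tested.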
